A study of Mus musculus with 6 samples.

Results

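The dystroglycan complex of the Schwann cell was followed through 9 genes, taken by symbol from the 24421 genes counted in each library: Dag1, Prx, Drp2, Utrn, Dmd, Sgcb, Sgcd, Sgce and Dtna. All 9 were found in every file, and all 9 passed the filter on low counts that left 14789 genes for testing. The libraries are RNA-seq of mouse sciatic nerve, the large mixed nerve of the hind limb, with 3 libraries labelled YAP/TAZ-DBL-cKO (written cKO here) and 3 labelled YAP/TAZ-WT (written WT), from 3 mice of each genotype by the design text. YAP and TAZ are co-activators of TEAD transcription factors. The label gives the alleles only as YAP, TAZ and cKO, and the sources used here do not give the floxed alleles, the Cre driver, the cells in which it acts, the age or the sex of the animals. What the WT animals carried besides their label is likewise not given.

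Dystroglycan is a laminin receptor made from a single precursor that is cleaved into an outer alpha part, whose sugar chains bind laminin, and a beta part that crosses the membrane. In myelinating Schwann cells the beta part is tied through DRP2 to the scaffold periaxin at patches where the outer myelin surface adheres to the plasma membrane, and the channels of cytoplasm between the patches are the Cajal bands. Utrophin and the short dystrophin Dp116 tie dystroglycan to the cell's interior elsewhere, the sarcoglycans sit beside it in the membrane, and dystrobrevins and syntrophins join on the inner side. Loss of periaxin causes a demyelinating neuropathy in people and in mice.

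Total gene counts ran from 24651262 to 32003497 in the cKO libraries and from 41270894 to 47044158 in the WT ones, so every WT library was deeper. The targeted genes did not check the labels: Yap1 stood at 103 to 109 CPM (read counts scaled to library size, with TMM factors) in cKO and 120 to 124 CPM in WT without a call, and Wwtr1, which encodes TAZ, was higher in cKO (log2 0.40 ± 0.09, SE, n = 3 per group, edgeR adjusted p = 0.0208), a call lost without cKO 3 (0.117), WT 1 (0.0914) or WT 2 (0.0518). Directions therefore rest on the labels, since whole-gene counts do not show a deleted exon. Female-specific Xist (134 to 258 CPM) was found together with Ddx3y of the Y chromosome (8.93 to 48.0 CPM) in each library, which a single mouse would not give, and the labels say nothing of pooling. All 6 markers listed for Schwann cells were present in every library; 5 of them were not called, with a median log2 fold change of -0.20 over the 6, and 1 was called lower. The summed level of 12 skeletal muscle markers was 352 to 1377 CPM in WT and 3581 to 8132 CPM in cKO, 5.46 times as high in the means, with 10 of the 12 called higher and none at 0 in any library. Among these Acta1, the actin of skeletal muscle, stood at 134 to 510 CPM in WT and 1238 to 2717 CPM in cKO. Ckm, the muscle creatine kinase, ran from 27.7 to 107 CPM in WT and from 293 to 718 CPM in cKO, and Ttn, the giant spring protein of the sarcomere, from 9.35 to 35.4 and from 109 to 157 CPM. The summed level of 6 markers of smooth muscle and pericytes also did not overlap, at 234 to 458 CPM in WT and 522 to 625 CPM in cKO, with 2 of the 6 called higher (Des, also a skeletal muscle gene, and Cspg4), and its part in the results was not tested. The skeletal muscle values are set beside the members below, because several of them are also muscle genes. In bulk nerve, fewer cells of a type and less RNA per cell cannot be told apart.

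Promoter sequence is shown for 3 members: Prx and Sgcd, which fell, and Dag1, for which no change was detected. Prx and Sgcd are also the members whose windows hold the motif marked below, so the printed windows are not typical of the members that fell. The windows are the 250 bases before a RefSeq start site in the GRCm38.p6 assembly, printed 5′ to 3′ on the gene's own strand, and RefSeq promoters were matched for 6 of the 9 members with 8 windows in all, leaving out Drp2, Sgce and Dtna. Capitals mark the core of the TEAD binding motif, GGAATG, searched on both strands.
Prx, chr7:27499074-27499323, plus strand: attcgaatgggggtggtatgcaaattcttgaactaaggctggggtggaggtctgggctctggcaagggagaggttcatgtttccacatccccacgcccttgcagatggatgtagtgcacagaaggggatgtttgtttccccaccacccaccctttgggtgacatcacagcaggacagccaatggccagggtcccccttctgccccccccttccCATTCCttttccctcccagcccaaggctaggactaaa
Sgcd, chr11:47379326-47379575, minus strand: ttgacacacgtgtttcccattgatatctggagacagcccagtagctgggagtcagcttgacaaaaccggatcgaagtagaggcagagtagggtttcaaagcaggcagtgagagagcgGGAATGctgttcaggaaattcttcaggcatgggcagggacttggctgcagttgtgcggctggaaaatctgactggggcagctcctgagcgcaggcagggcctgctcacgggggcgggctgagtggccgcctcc
Dag1, chr9:108263959-108264208, minus strand: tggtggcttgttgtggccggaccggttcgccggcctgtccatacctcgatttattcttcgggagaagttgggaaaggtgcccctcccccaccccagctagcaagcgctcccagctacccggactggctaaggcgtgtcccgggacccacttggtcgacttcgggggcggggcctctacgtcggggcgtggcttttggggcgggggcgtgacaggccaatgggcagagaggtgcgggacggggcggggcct
The Prx window holds the motif once, as its reverse complement, 37 to 32 bases before the start. The Sgcd window holds it once as spelled, 133 to 128 bases before a start that lies inside the gene. Neither Dag1 window holds it, nor do the windows of Utrn, Dmd and Sgcb, which were also called lower. The Utrn window and a Dmd window also lie wholly inside their genes. The sources used here do not say whether either Dmd window serves the Dp116 form of Schwann cells. The motif was thus absent from windows of members that fell as well as from those of Dag1. The same motif is found in 12.6% of the 32851 windows of all genes. The SOX core ACAAAG, found in 16.5% of windows, and the EGR motif GCGTGGGCG, found in 0.536%, are in none of the 8 windows. None of the 3 motifs overlaps another in these windows. Base composition also differs, with 56.4% G and C in the Prx window, 58.0% in that of Sgcd and 67.6% in the printed Dag1 window.

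Across the 9 members the cKO libraries had less Prx, Drp2, Utrn, Sgcb and Sgcd, and less Dmd by a call at the edge of the threshold. No difference was detected in Dag1 or called in Sgce, and the dystrobrevin gene Dtna was higher. Of the 9 members, 6 were called lower and 1 higher (edgeR, adjusted p under 0.05), beside 6.17% of all tested genes called lower and 4.77% higher. The groups did not overlap for 8 members, with 7 below WT and 1 above, where 15.8% of all genes lay below and 15.3% above without overlap. The median log2 fold change of the members was -0.55, against 0.02 over all tested genes, and the members ran from -2.70 to 1.07. DESeq2 and limma-voom each called 7 of the 9 as well.

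**Figure D1:**
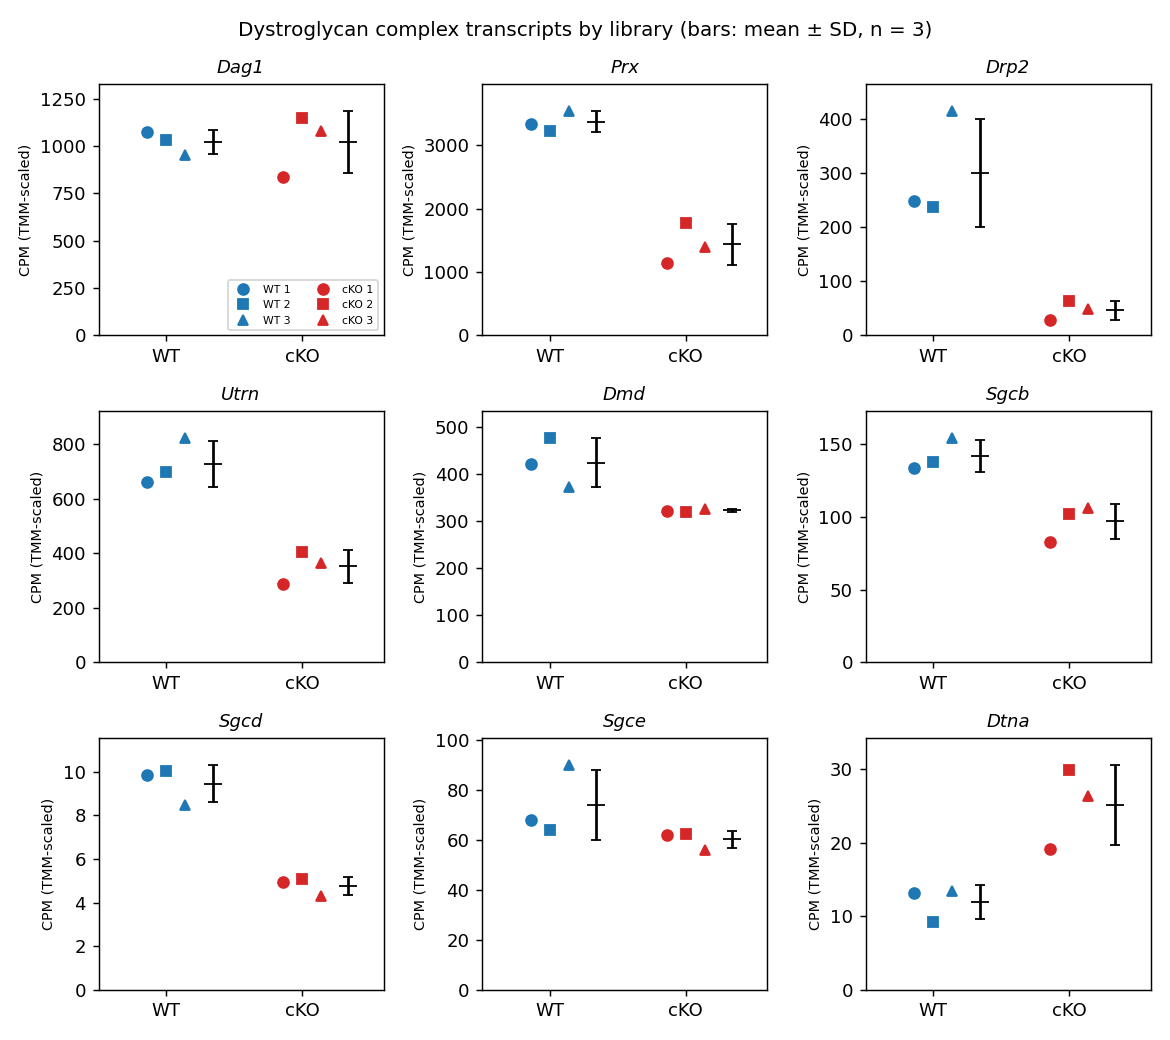
Level of each member in CPM scaled by TMM factors (y axis, from 0) in the 3 WT (blue) and 3 cKO (red) libraries, with the mean and SD of each group as bars and marker shape giving the replicate number. Drp2 and Prx show the widest gaps, Dag1 overlaps, and Dtna is the member whose cKO libraries all lie above WT.

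Dag1 (chromosome 9, 108204634 to 108263958, minus strand), the dystroglycan precursor itself, was among the abundant transcripts of the nerve. It stood at 1075, 1034 and 951 CPM in WT 1, 2 and 3 and at 835, 1151 and 1080 CPM in cKO 1, 2 and 3. The cKO libraries thus held both the lowest and the highest value, and the groups overlapped. The log2 fold change was 0.00 ± 0.13 (SE, n = 3 per group), with a 95% interval from -0.29 to 0.30 and an edgeR adjusted p of 0.994. A change inside that interval was not detectable at this precision.

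Prx (chromosome 7, 27499324 to 27520214, plus strand) encodes periaxin, the PDZ-domain scaffold of myelinating Schwann cells. Its level was 3337, 3232 and 3546 CPM in WT 1, 2 and 3 and 1136, 1768 and 1398 CPM in cKO 1, 2 and 3. Every cKO library lay well below every WT library, and the WT libraries were close together. The log2 fold change was -1.23 ± 0.16 (SE), with a 95% interval from -1.59 to -0.88 and an edgeR adjusted p of 0.0021. Each of the 6 fits without 1 library called it, and it ran there from -1.41 to -1.09. The short and the long periaxin arise from the same gene, and gene counts do not separate them.

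Drp2 (chromosome X, 134404551 to 134456573, plus strand) encodes dystrophin-related protein 2, the link between beta-dystroglycan and periaxin. It had 248.6, 237.1 and 415.8 CPM in WT 1, 2 and 3 and 28.1, 62.8 and 48.0 CPM in cKO 1, 2 and 3. The lowest WT library was thus far above the highest cKO one, while WT 3 stood above its group and cKO 1 below its own. The log2 fold change was -2.70 ± 0.31 (SE), with a 95% interval from -3.405 to -1.997 and an edgeR adjusted p of 0.00123. Its size was the 28th among the 912 genes called lower, where Prx came 193rd. With 1 library left out at a time Drp2 was called 6 of 6 times, at log2 values from -2.98 without cKO 2 to -2.43 without WT 3 (edgeR adjusted p = 0.00249 and 0.000861).

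Utrn (chromosome 10, 12382188 to 12869365, minus strand) encodes utrophin, the widely expressed relative of dystrophin. It had 661, 699 and 823 CPM in WT 1, 2 and 3 and 288, 406 and 366 CPM in cKO 1, 2 and 3. The cKO libraries were all below WT, and cKO 1 was lowest, as it was for Prx and Drp2. Its log2 fold change was -1.04 ± 0.14 (SE, edgeR adjusted p = 0.0029), and leaving out any 1 library kept the call.

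Dmd (chromosome X, 82948870 to 85206141, plus strand) encodes dystrophin, full-length in muscle and as the shorter Dp116 in Schwann cells, forms that the counts do not separate. Its level was 421, 477 and 374 CPM in WT 1, 2 and 3 and 322, 319 and 327 CPM in cKO 1, 2 and 3. The cKO values were nearly identical and lay just below the lowest WT library. The log2 fold change of -0.39 ± 0.10 (SE) had an edgeR adjusted p of 0.0443, at the edge of the threshold. The call was lost with total counts (adjusted p = 0.158), with upper-quartile factors (0.058), with the replicate number as a block (0.0994) and in 5 of the 6 fits that left out 1 library (0.0859 to 0.157), and it was kept without WT 3 (0.00981).

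The sarcoglycans are small membrane proteins that stand beside dystroglycan, with the alpha chain typical of striated muscle and the epsilon chain widely expressed. Sgcb (chromosome 5, 73632749 to 73647790, minus strand), the beta chain, had 134, 138 and 155 CPM in WT 1, 2 and 3 and 83.2, 102 and 106 CPM in cKO 1, 2 and 3. It fell by 0.55 ± 0.11 on the log2 scale (SE, edgeR adjusted p = 0.0144), with no overlap between the groups. Sgcd (chromosome 11, 46896253 to 47988969, minus strand), the delta chain, had 9.84, 10.1 and 8.47 CPM in WT 1, 2 and 3 and 4.95, 5.06 and 4.30 CPM in cKO 1, 2 and 3, from 130 to 455 counts a library. It fell by 0.99 ± 0.16 on the log2 scale (SE, edgeR adjusted p = 0.00627), and both it and Sgcb kept their calls when any 1 library was left out. Sgce (chromosome 6, 4674350 to 4747207, minus strand), the epsilon chain, had 67.6, 63.8 and 89.8 CPM in WT 1, 2 and 3 and 61.9, 62.3 and 56.0 CPM in cKO 1, 2 and 3. The groups did not overlap, but WT 2 and cKO 2 were close together, and the log2 fold change of -0.30 ± 0.13 (SE) did not pass (edgeR adjusted p = 0.206, 95% interval -0.59 to 0.00).

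Dtna (chromosome 18, 23415135 to 23659715, plus strand) encodes alpha-dystrobrevin, a cytoplasmic member that binds dystrophin and syntrophins. It had 13.1, 9.25 and 13.4 CPM in WT 1, 2 and 3 and 19.2, 29.8 and 26.4 CPM in cKO 1, 2 and 3. Every cKO library was above every WT library, and Dtna was the member that rose (log2 1.07 ± 0.20, SE, edgeR adjusted p = 0.0103). The call was lost without cKO 3 (log2 1.03, adjusted p = 0.0533) and kept in the other 5 fits that left out 1 library.

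Muscle transcripts moved with Dtna. Both were lowest in WT 2, where the muscle sum was 352 CPM, and highest in cKO 2, where it was 8132 CPM. Dtna rose less than the muscle sum, which was 5.46 times as high in the cKO mean. Its share of that sum was 0.951% to 2.63% in WT and 0.367% to 0.548% in cKO, without overlap. A gene that rises less than the sum must have a lower share. Dag1, for which no change was detected, went from 73.2% to 293% in WT to 14.2% to 23.3% in cKO. The share thus cannot show whether muscle gave the rise of Dtna, and that was not tested. The share was computed after the values were seen. With the muscle level of each library as a covariate, the log2 fold change of Dtna was 0.30 (edgeR adjusted p = 0.788), against 1.07 without it. In that fit Drp2 stood at -3.65 (adjusted p = 0.0196) and Prx at -1.62 (adjusted p = 0.0423), both larger than before and still called. Utrn stood at -1.33 (adjusted p = 0.0665), Sgcb at -0.71 (0.268), Sgcd at -0.90 (0.389) and Dmd at -0.14 (0.88), none of them called. In all, 2 members were called lower and 0 higher there, when 120 genes in all were called lower and 19 higher. The muscle level itself did not overlap between the groups, so the covariate and the genotype are largely the same contrast. This fit cannot tell them apart, and that holds for Drp2 and Prx too.

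**Figure D2:**
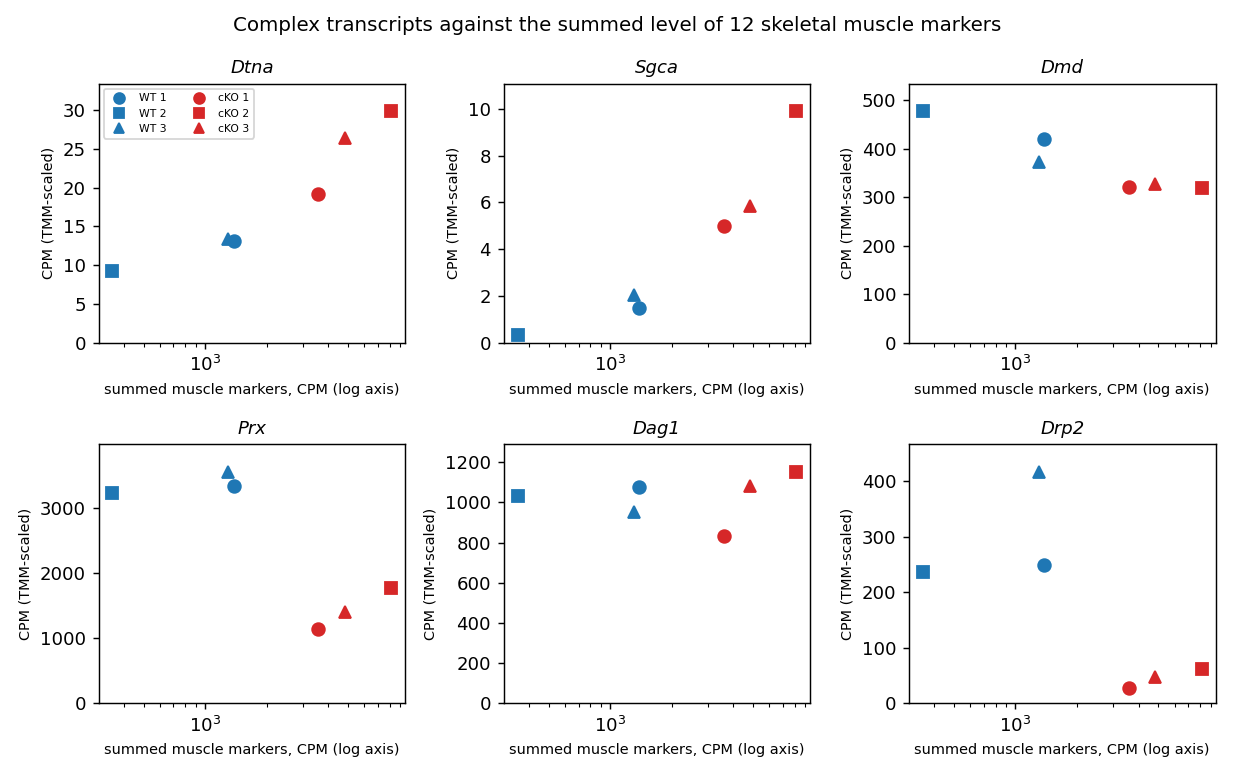
Level in CPM (y axis, from 0) of the members Dtna, Dmd, Prx, Dag1 and Drp2 and of the muscle sarcoglycan Sgca against the summed CPM of 12 skeletal muscle markers (x axis, log scale), 1 point per library, WT in blue and cKO in red. Dtna and Sgca are lowest in WT 2 and highest in cKO 2, as the muscle sum is. Drp2 too is lowest in WT 2 among the WT libraries and highest in cKO 2 among the cKO ones, and its cKO libraries, at 28.1 to 62.8 CPM, all lie below the WT ones.

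Transcript levels of different genes can be compared only per length of transcript, so CPM was divided by the kilobases of exon of each gene. In WT nerve Prx led with 604 ± 28.7 CPM per kilobase (SD, n = 3), followed by Dag1 with 160 ± 9.96. Utrn (42.5 ± 4.97), Drp2 (35.1 ± 11.7) and Sgcb (35.1 ± 2.70) came next, and the range of Drp2 (27.7 to 48.6) overlapped those of Utrn (38.6 to 48.1) and Sgcb (33.0 to 38.2), which did not overlap each other. Below them stood Dmd (17.8 ± 2.18), Sgce (6.95 ± 1.33), Sgcd (1.14 ± 0.104) and Dtna (0.704 ± 0.137), each in a range of its own. In cKO nerve Prx (257 ± 57.0) and Dag1 (161 ± 26.0) kept the top places with a narrower gap. Drp2, at 5.41 ± 2.03 CPM per kilobase, had moved down beside Sgce (5.66 ± 0.333), with overlapping ranges, and Dtna (1.48 ± 0.322) stood above Sgcd (0.578 ± 0.0496). With the longest transcript as the length, Utrn and Sgcb swapped places in cKO and the order of the means was otherwise as given. The ranges changed more: Drp2 in cKO (3.94 to 8.80) then lay below Sgce (12.7 to 14.1) without overlap, and Sgcd (1.90 to 2.26) and Dtna (1.47 to 2.13) overlapped in WT. That length also raised levels, by over 1.5 times for Sgce (16.7 in WT), Dtna (1.89), Dmd (28.4) and Sgcd (2.12). Both lengths used for Dmd, 23801 bases of exon and 14910 bases in the longest transcript, are longer than the Dp116 form of Schwann cells. The level of Dmd per kilobase may thus be understated, and its place in the order is not settled.

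The members' proportions to each other were read within each library, where no scaling between libraries is needed. In all 10 pairs were compared, of which 8 are given here, with exact two-sided permutation tests over the libraries; 3 against 3 cannot give a p below 0.1, so none could pass. Drp2 counts came to 7.45%, 7.33% and 11.7% of Prx counts in WT 1, 2 and 3 and to 2.48%, 3.55% and 3.43% in cKO 1, 2 and 3. The Drp2 share of Prx was thus lower in every cKO library, 2.77-fold in the geometric means (exact permutation p = 0.1, adjusted p = 0.111 over the 10 pairs). Against Dag1, Drp2 was 6.57-fold lower and Prx 2.37-fold lower, from 310% to 373% of Dag1 counts in WT and 130% to 154% in cKO. Drp2 was also 3.19-fold lower against Utrn, so Drp2 fell further than Utrn in every cKO library.

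Ratios among the other members shifted less or the other way. Utrn counts were 157%, 146% and 220% of Dmd counts in WT 1, 2 and 3 and 89.3%, 127% and 112% in cKO 1, 2 and 3, a 1.58-fold lower ratio without overlap. Sgcd was 1.63-fold lower against Sgce, also without overlap, although WT 3 (9.43%) was close to the cKO libraries (7.68% to 8.12%). For Sgcb against Sgcd the groups overlapped (exact permutation p = 0.2). The Dtna share of Utrn was 1.32% to 1.98% in WT and 6.66% to 7.35% in cKO, 4.35-fold higher. Each of the 7 ratios given here whose groups did not overlap had an exact permutation p of 0.1 and an adjusted p of 0.111.

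**Figure D3:**
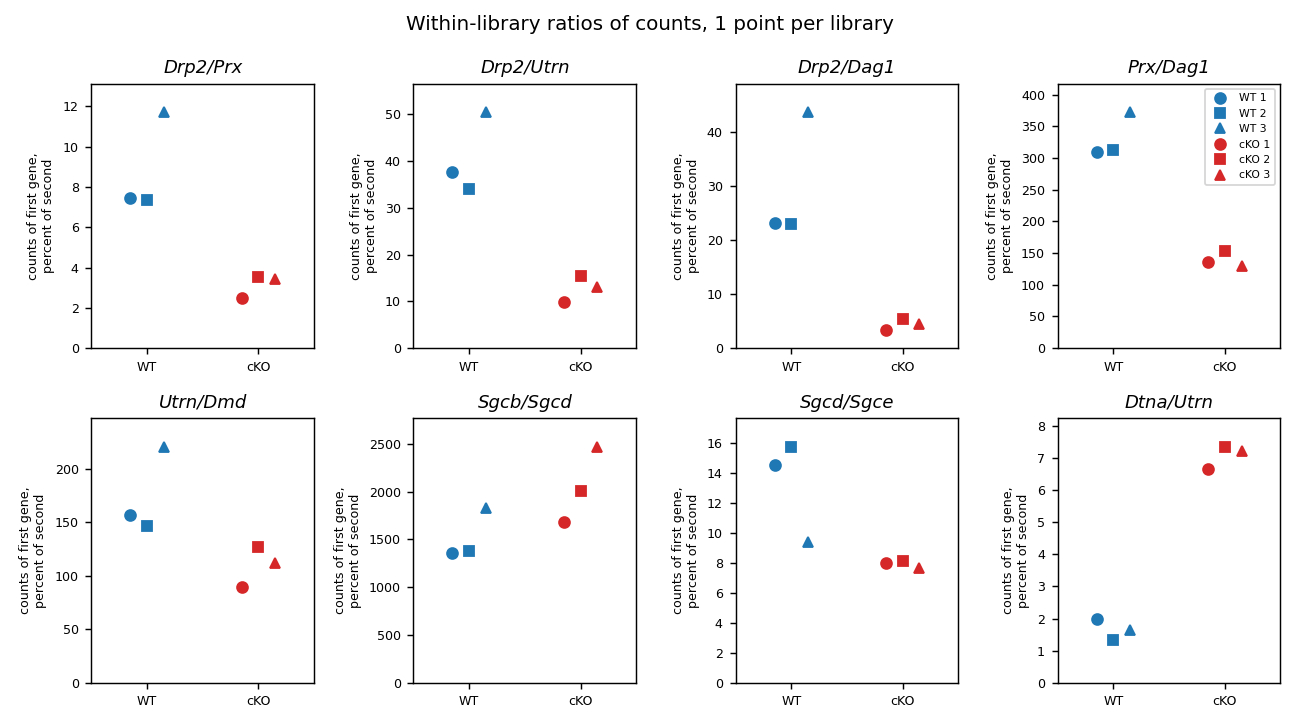
Counts of the first gene as a percent of those of the second (y axis, from 0) in each library for 8 pairs, WT in blue and cKO in red, marker shape giving the replicate number. The groups overlap for Sgcb/Sgcd and for no other pair shown; Dtna/Utrn is higher in cKO and the remaining 6 are lower.

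The genes most like Drp2 and Prx over the 6 libraries were sought among 10044 genes whose log2 CPM averaged 3 or more, by Pearson's r of log2 CPM. For Drp2 they included Elovl7 (r = 0.9988), Mme (0.9986), Cmtm6 (0.9981) and the member Utrn (0.9979). Mme, which encodes the metallopeptidase neprilysin, fell by 3.39 on the log2 scale, and Elovl7, a fatty acid elongase, by 0.84, so a high r says nothing of equal size. For Prx they were Fasn (0.9994), Spg20 (0.9982), Lss (0.9981), Adgrg1 (0.9979) and Acat3 (0.9974). Fasn, the fatty acid synthase, fell by 0.92 and Lss, the lanosterol synthase, by 2.17. All 9 named here were called lower themselves, the points share the gap between the groups and the library depths, and these r are descriptions over 6 libraries.

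The rest of the complex was followed through 10 further genes. Of 8 that were tested, 0 were called lower and 2 higher, beside 6.17% and 4.77% of all tested genes, and their median was 0.14 on the log2 scale. Among those that rose was Sgca, the alpha chain of muscle sarcoglycan, which had 1.49, 0.325 and 2.04 CPM in WT 1, 2 and 3 and 4.98, 9.89 and 5.84 CPM in cKO 1, 2 and 3. Every cKO library was above every WT library, and the log2 fold change was 2.42 ± 0.54 (SE, edgeR adjusted p = 0.0219). Sgca was lowest in WT 2 and highest in cKO 2, as the muscle sum was, and it came to 0.0922% to 0.157% of that sum in WT and 0.121% to 0.139% in cKO, with overlapping groups. This share was computed after the values were seen. With the muscle covariate Sgca was not called (log2 0.04, edgeR adjusted p = 0.993). It also lost its call without cKO 2, cKO 3 or WT 1 and with the replicate number as a block (adjusted p = 0.078, 0.0691, 0.0583 and 0.0559).

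Of the 8, 6 were not called. Sspn, the tetraspan protein sarcospan, had 43.6 ± 8.97 CPM in WT and 47.0 ± 7.72 CPM in cKO (SD, n = 3). Dtnb, the beta-dystrobrevin, had 7.17 ± 0.127 CPM in WT and 8.10 ± 0.868 CPM in cKO (log2 0.18 ± 0.15, SE), so the rise of Dtna had no counterpart that passed in Dtnb. The syntrophins are adaptors that bind dystrophin relatives and dystrobrevins. Sntb1 and Sntb2 had 9.93 ± 2.70 and 10.8 ± 1.89 CPM in WT and 8.42 ± 4.95 and 9.10 ± 3.02 CPM in cKO, where cKO 1 was the lowest library for both. Sntg2 was near the limit of the test, with 13 to 45 counts a library. Sgcz and Sntg1 did not pass the filter, with 0 to 1 and 2 to 12 counts a library.

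The outer side of the complex was followed through 6 extracellular proteins with dystroglycan-binding domains, of which 1 fell and 1 rose (median log2 fold change 0.06), where 6.17% of all tested genes fell and 4.77% rose. Lama2, the alpha-2 chain of laminin in the basal lamina around Schwann cells, had 692, 723 and 656 CPM in WT 1, 2 and 3 and 433, 478 and 445 CPM in cKO 1, 2 and 3. It fell by 0.61 ± 0.09 on the log2 scale (SE, edgeR adjusted p = 0.00392), and its call was kept whichever library was left out. Lama1, a chain that binds the same receptors, had 2.65 to 4.003 CPM in WT and 6.03 to 6.58 CPM in cKO (log2 0.97 ± 0.22, adjusted p = 0.022), and it was not called when WT 2 (adjusted p = 0.0814), cKO 1 (0.0511), cKO 2 (0.0756) or cKO 3 (0.0832) was left out and with the replicate number as a block (0.0547). Lama5, another laminin chain, named after its values were seen, lay higher in every cKO library than in any WT library but did not pass (log2 0.62 ± 0.19, SE, adjusted p = 0.0753). Of the other ligands not called, Egflam also lay higher in every cKO library (log2 0.17 ± 0.08, SE, edgeR adjusted p = 0.221). The groups overlapped for Agrn (-0.28 ± 0.11, adjusted p = 0.169) and Hspg2 (-0.05 ± 0.12, adjusted p = 0.877). They too were named after their values were seen.

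In a mixed list of cytoplasmic partners, the integrin chain Itgb4 and proteases that cleave dystroglycan, 2 of 9 tested genes fell and 0 rose (median log2 fold change -0.09), beside 6.17% and 4.77% of all tested genes, and Ahnak2 was not analysed here. Ank3, the ankyrin that anchors dystrophin and beta-dystroglycan to the spectrin skeleton, had 138, 159 and 133 CPM in WT 1, 2 and 3 and 72.4, 89.0 and 85.1 CPM in cKO 1, 2 and 3 (log2 -0.80 ± 0.11, SE, edgeR adjusted p = 0.00279). Its call too was kept whichever library was left out. Itgb4, the integrin chain that also serves as a laminin receptor of the outer Schwann cell surface, had 83.6 to 100 CPM in WT and 48.1 to 74.7 CPM in cKO (log2 -0.57 ± 0.15, adjusted p = 0.0437). Among the 6 fits without 1 library it was called in 1, that without cKO 2 (adjusted p = 0.0266), and its call was lost with the replicate number as a block (0.0652). Itgb4 is also 1 of the 4 markers listed for perineurial cells, and the only 1 of them called. The cell type in which it fell was not tested.

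The enzymes that build the laminin-binding sugar of alpha-dystroglycan were counted separately. Of 17 tested, 3 were called lower and 0 higher, beside 6.17% and 4.77% of all tested genes; the 17 ran from -0.58 to 0.15 on the log2 scale around a median of -0.15. Ispd, which makes the CDP-ribitol used for the chain, had 43.8, 57.5 and 42.2 CPM in WT 1, 2 and 3 and 31.1, 33.3 and 31.8 CPM in cKO 1, 2 and 3 (log2 -0.58 ± 0.13, SE, edgeR adjusted p = 0.0201). Large, the glycosyltransferase that extends the laminin-binding repeat, went from 68.2 ± 10.1 to 49.7 ± 5.17 CPM (SD, n = 3; log2 -0.46 ± 0.12, adjusted p = 0.0473), and B4gat1, which primes that repeat, from 59.2 ± 5.88 to 45.6 ± 1.73 CPM (log2 -0.38 ± 0.10, adjusted p = 0.0373). These 3 calls were fragile: with total counts 0 of the 17 were called lower, with upper-quartile factors 1, and 0 again when WT 2 or any 1 cKO library was left out, while leaving out WT 3 gave 4. Gyltl1b, the relative of Large, did not pass the filter.

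**Figure D4:**
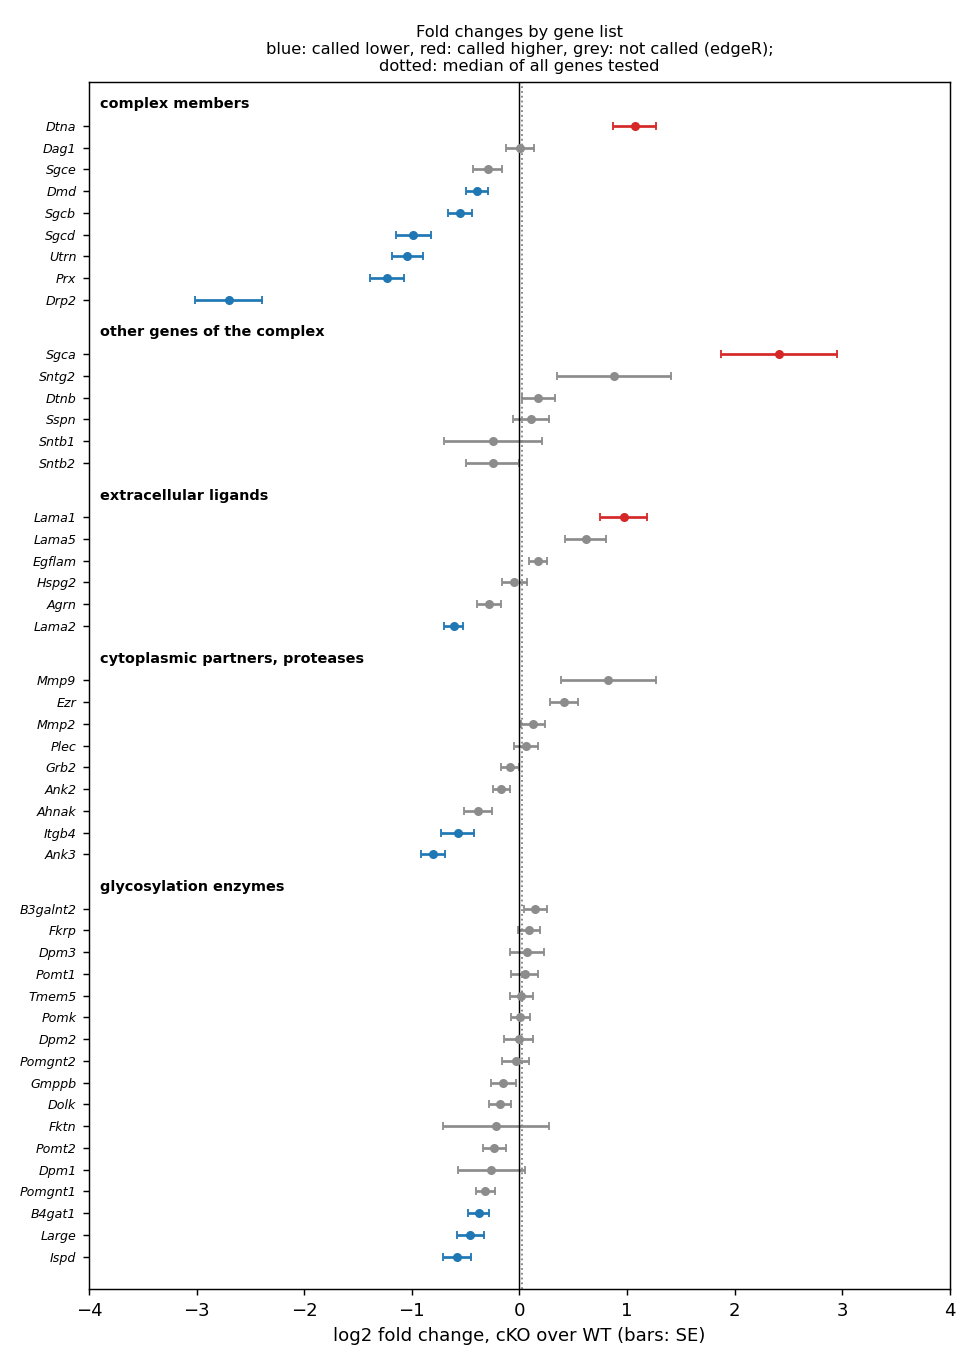
Log2 fold change of cKO over WT (x axis, bars show the SE) for tested genes of the 5 lists, with genes called lower in blue, called higher in red and not called in grey, and the median of all tested genes as a dotted line. Drp2 at -2.70 lies farthest to the left, and Sgca at 2.42 farthest to the right of those shown.

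Under every scaling, filter and test tried, with the replicate block and with any 1 library left out, 5 members were called lower: Prx, Drp2, Utrn, Sgcb and Sgcd. Total counts in place of TMM factors shift the median of all genes by 0.124 on the log2 scale and the share of lower genes among all calls from 56.4% to 32.3%, yet the same 5 members were called lower and Dtna higher. With the muscle covariate the called members were Prx and Drp2, in a fit that cannot tell muscle level and genotype apart.

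**Figure D5:**
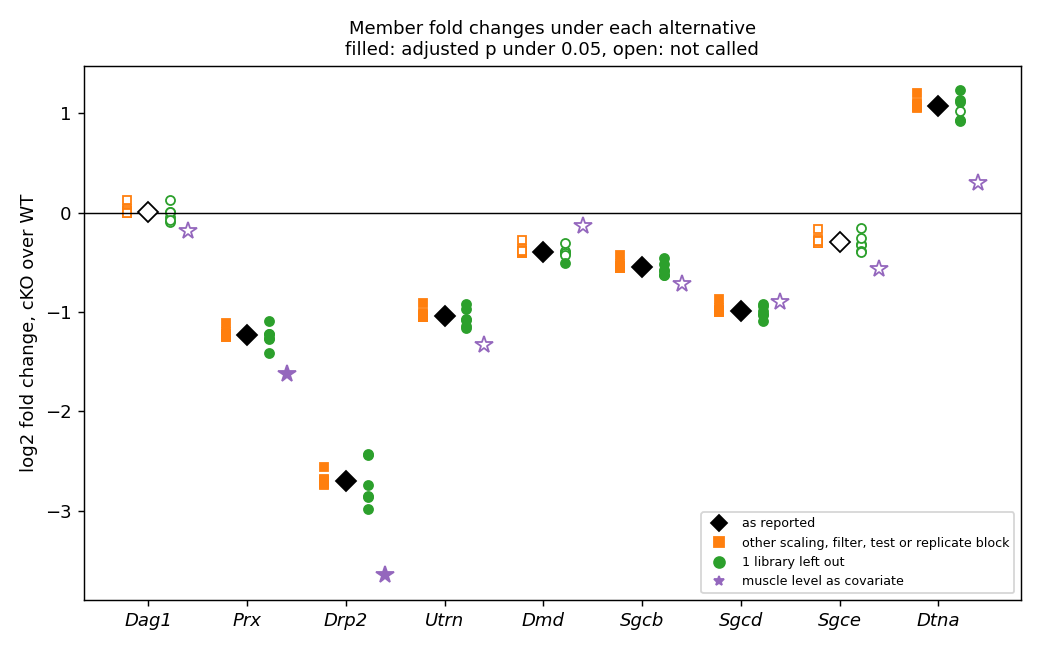
Log2 fold change of cKO over WT (y axis) of each member as reported (black diamonds), with other scalings, filters, tests or the replicate block (orange squares), with 1 library left out (green circles) and with the muscle covariate (purple stars), filled where the adjusted p is under 0.05. Prx and Drp2 are filled throughout, the Dmd symbols are mixed, and the sign of Dag1 varies around 0.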

How the data were processed

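Per the labels' protocols, RNA of sciatic nerve was made into 3 cKO and 3 WT libraries with a TruSeq kit. Each deposited file gives unnormalized counts of reads by gene symbol. The submitters' processing notes name TopHat2 2.0.13, HTSeq and mm10; no annotation or strand setting is given in the sources used here. The 5 closing lines of HTSeq were left out; reads assigned to no gene were 12.07% to 14.26% of a file and reads shared by genes 1.635% to 2.818%. A count of 0 allows up to 0.122 CPM in the shallowest and 0.0638 CPM in the deepest library (3 counts, counting error only).

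All genes were tested together with edgeR 4.0.16 (R 4.3.3) by the quasi-likelihood F test with the group as the term, after filterByExpr (minimum count 10) and TMM scaling, and called at a Benjamini-Hochberg adjusted p under 0.05. The SE is the log2 fold change over the square root of F, and the 95% interval uses the fit's degrees of freedom. The procedure was tested on simulated data. Positions and exon lengths came from GENCODE M21 (GRCm38, the assembly of mm10). Alternatives were other scalings, filters of none and of 50 counts in 3 libraries, DESeq2 1.42.0, limma-voom (limma 3.58.1), the replicate number as a block, the muscle level as a covariate and leaving out each library.

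The members, the 4 further lists and the pairs were chosen with earlier results of these data known. The text names every member, every gene of the complex list, up to 6 called genes of each other list, the targeted genes, 3 muscle markers and the 5 genes most like Drp2 and Prx. Some genes that this rule names are not reported here. Xist and Ddx3y were added to check the libraries, and the ligands not called were added after their values were seen. Libraries of a group differed by more than counting noise (chi-square over degrees of freedom from 13.4 up), so none was treated as a copy.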

Additional observations from a re-analysis of the deposited data

How the results depend on the processing

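For the members, the count of 6 lower was 5 to 6 and the count of 1 higher was 0 to 1 in the fits that left out 1 library; with the muscle level as a covariate they were 2 and 0. Over all genes, 912 lower and 706 higher went to 606 and 1273 with total counts and to 120 and 19 with the muscle covariate; leaving out 1 library gave 459 to 1120 lower (fewest without cKO 3, with 575 without WT 2) and 276 to 1075 higher (276 without cKO 3, 395 without cKO 2, 409 without WT 2, 449 without WT 1 and 1075 without WT 3). With the replicate number as a block, 643 were lower and 461 higher. The muscle covariate gave 0 calls in the 4 further lists. Higher calls in the rest of the complex went from 2 to 1 with the replicate block, and to between 0 and 2 without 1 library. Lower glycosylation genes went from 3 to 1 with upper-quartile factors, to 0 with total counts, and to between 0 and 4 without 1 library. Higher ligands went from 1 to 2 with total counts or DESeq2, to 0 with the replicate block, and to between 0 and 2 without 1 library. Lower partners went from 2 to 1 with total counts or the replicate block, and were 1 to 2 without 1 library; higher ones went from 0 to 1 with total counts or DESeq2, and were 0 to 1 without 1 library. Dag1, near 0, was at -0.00723 with DESeq2's size factors, -0.007239 with DESeq2, -0.004861 without a filter, -0.00672 with limma-voom, -0.008488 with the replicate block and -0.1824 with the muscle covariate, and ran from -0.09312 to 0.13 without 1 library. Sspn turned to -0.36 with the muscle covariate, and without 1 library Sntb1 ran from -0.5465 to 0.18 (without cKO 1). The cause of these shifts was not tested. The labels number both groups 1 to 3 without saying that a number marks a pair. Deviations from the group means correlated at -0.207, -0.122 and 0.0724 between same-numbered libraries, and from -0.1 to 0.222 between differently numbered ones. With 3 libraries a group these values cannot show whether the numbers pair the samples. The block ended the edgeR calls of Dmd, Sgca, B4gat1 (adjusted p = 0.0924), Lama1, Itgb4 and Wwtr1 (adjusted p = 0.0713) among the named genes. No direction of a log2 ratio turned without 1 library or with a pseudocount of 0.5. Depth limits Sgcz, Sntg1 and Gyltl1b, which were too low to test.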
